A study of Oryza sativa with 12 samples.

Results

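The 6 genes described here, of 39967 measured, code for enzymes of glycolysis and organic acid metabolism and were followed through rice leaves with and without phosphate (Pi) and with and without the transcription factor PHR2. They are PHOSPHOFRUCTOKINASE 1 (Os01g0191700), a shorter phosphofructokinase gene (Os05g0194900), a pyruvate phosphate dikinase (Os03g0432100), PHOSPHOENOLPYRUVATE CARBOXYLASE 4 (Os01g0208700), a phosphoenolpyruvate (PEP) carboxylase kinase (Os04g0517500) and a malate dehydrogenase (Os05g0574400). The genes were picked by identifier, with earlier results of these libraries known, from the same comparisons that are given here. Their differences are therefore descriptions that support nothing further, and each p-value below is printed only to show where a gene stood among all genes tested.

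The study measured leaf messenger RNA of wild-type rice, cultivar ZH11 (WT), and of a PHR2 knockout (phr2) whose allele and number of lines the labels do not give. PHR2 is a MYB-type activator of the Pi starvation response. All plants were grown in 1/2MS medium, and plants 3 weeks old were moved to that medium lacking Pi and harvested on day 3. The control libraries are labelled as untreated, with no day of harvest given. Each genotype gave 3 control libraries and 3 no Pi libraries, so there were 4 groups and 12 libraries. The labels do not say whether replicates are separate plants, so p-values measure only the spread between these libraries, which may be technical.

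Plants short of Pi are known to replace some ATP- and Pi-consuming steps of glycolysis with bypass reactions. A pyrophosphate (PPi)-dependent phosphofructokinase can stand in for the ATP-dependent enzyme, pyruvate phosphate dikinase converts PEP and pyruvate into each other with PPi and Pi as partners, and PEP carboxylase turns PEP into oxaloacetate and frees Pi. Malate dehydrogenase then reduces oxaloacetate to malate, and PEP carboxylase kinase phosphorylates PEP carboxylase and makes it less sensitive to inhibition by malate. As given below, the PEP carboxylase member is a plastid isoform and the malate dehydrogenase member matches a mitochondrial enzyme. Whether either takes part in this bypass was not tested.

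The annotation went against the working name of both phosphofructokinases. The RAP description calls them similar to a PPi-dependent phosphofructokinase-like protein, and Os05g0194900 carries that name, but the best Swiss-Prot match of both is ATP-dependent 6-phosphofructokinase 3. The genes matched to subunits of the PPi-dependent enzyme are 5 others. Both members are therefore called phosphofructokinases here, without a phosphoryl donor. Each of the 6 genes has 1 annotated transcript, and all 6 passed the filter on low values, which asked for an FPKM of 1 or more in 3 or more libraries and kept 22648 genes.

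FPKM, fragments per kilobase of transcript scaled for library size, implied 10109727 to 13122430 assigned reads a library. The sum of FPKM ran from 1162552 to 2292700 and was highest in WT control 1 and 2, so the deposited scale differs between libraries; WT control 3, at 1410691, lay below WT no Pi 1 and phr2 control 3. For that reason each gene is also given below as a share of the summed FPKM of its own enzyme class, a measure that no rescaling of a library alters. Library phr2 no Pi 3 stood apart: its mean Pearson r was 0.871 with its own group and 0.904 with the WT libraries, and its closest library was WT no Pi 2 (r = 0.968). WT control 1 had the lowest mean r with its own group, 0.855, and the library closest to WT control 3 was phr2 no Pi 3 (r = 0.950). PHR2 itself (Os07g0438800) was listed at 17.9 to 27.5 FPKM in WT control and at 21.4 to 29.6 in phr2 control, so its transcript does not check the genotype labels. Leaf genes fitted the tissue label: 28 of 38 photosynthesis markers were kept, while 2 of 46 seed storage protein genes, 37 of which were at 0 throughout, and 0 of 5 pollen expansin genes were. Of 15 root and endodermis markers 9 were kept, so the kept count did not set that list apart from the leaf list. The summed FPKM of the leaf markers was 73470 to 97910 in WT no Pi and 100800 to 237603 in the other 9 libraries, and that of the 15 root markers was 131 to 496 in all. The 3 markers of senescing leaves summed to 72.2, 77.3 and 839 FPKM in WT no Pi and to 40.0 to 125 in the others, so 1 WT no Pi library alone was high.

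Against this background, 2 of the 6 genes passed in the WT response to Pi withdrawal, PHOSPHOENOLPYRUVATE CARBOXYLASE 4 and malate dehydrogenase, both lower, where 2.36% of all genes passed and 1.4% passed as lower. None passed in the phr2 response, where 0% of all genes did. Both phosphofructokinases passed as lower in phr2 than in WT on control medium, where 0.667% of all genes passed and 0.587% passed as lower. None of the 6 passed between the genotypes without Pi or in the interaction, where 0% of all genes did. Passing means a limma adjusted p under 0.05, with p-values adjusted over the 22648 genes. At an unadjusted p under 0.05 the 5 comparisons held 6, 1, 4, 2 and 3 of the 6 genes, in the same order, against 25%, 3.91%, 18.5%, 8.67% and 8.84% of all genes.

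The 4 comparisons between groups were also read by whether the ranges of the 2 groups were separate. All range counts here are on the deposited scale. In the WT response the ranges of all 6 genes were separate, 1 higher and 5 lower without Pi. Of all genes 24.8% were separate, 11.9% higher and 12.9% lower. In assigned reads, not scaled for library size, both phosphofructokinases overlapped between WT control and WT no Pi. PHOSPHOFRUCTOKINASE 1 had 2695 to 6046 against 2636 to 4265 reads, and Os05g0194900 had 105 to 259 against 43 to 135. In the phr2 response only pyruvate phosphate dikinase was separate, being higher, where 9.75% of all genes were separate and 4.47% were higher. On control medium 4 genes were separate between the genotypes, 3 lower in phr2 and 1 higher, where 21% of all genes were separate, 11.8% lower and 9.18% higher. Without Pi 2 genes were separate, both higher in phr2, where 11.4% of all genes were separate and 5.96% were higher. The median difference of all genes lay between −0.013 and 0.021 on the log2(FPKM + 1) scale in the 5 comparisons, so most genes were centred near 0 on the deposited scale.

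**Figure D1:**
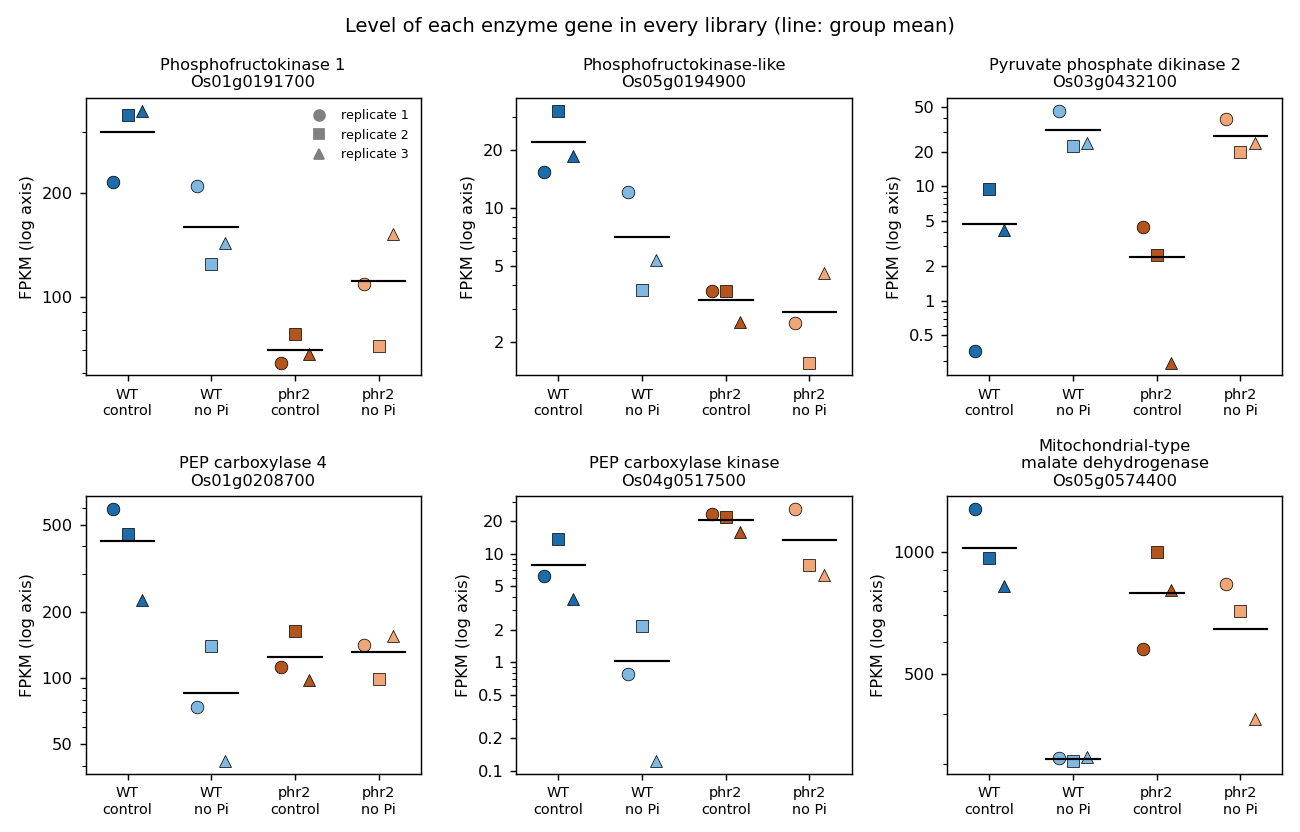
FPKM of each of the 6 genes (log axis) in the 4 groups, 1 symbol per library and a line at the group mean. WT control lies highest for both phosphofructokinases, PHOSPHOENOLPYRUVATE CARBOXYLASE 4 and malate dehydrogenase, the 2 no Pi groups lie highest for pyruvate phosphate dikinase, and the 2 phr2 groups lie highest for PEP carboxylase kinase.

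PHOSPHOFRUCTOKINASE 1 (Os01g0191700, chromosome 1, 4905609 to 4909339, plus strand, coding length 1596 bases) codes for an enzyme of the step that commits fructose 6-phosphate to glycolysis. Its FPKM was 215, 338 and 347 for WT control, 209, 125 and 143 for WT no Pi, 64.3, 78.0 and 68.1 in phr2 control and, without Pi, 109, 72.0 and 152 in phr2. In FPKM all 3 WT control libraries were above all others, and all 3 phr2 control libraries were below every WT library. In assigned reads, not scaled for library size, WT control 1 had 2695 and lay below WT no Pi 1, with 4265, and phr2 no Pi 3, with 3179. That WT control stood wholly apart thus rests on the deposited scale. From the highest mean to the lowest, the groups ran WT control (299.9 ± 74.0, SD, n = 3), WT no Pi (159 ± 44.4), phr2 no Pi (111 ± 40.2) and phr2 control (70.1 ± 7.08). On this scale WT control and WT no Pi did not overlap, whereas WT no Pi overlapped with phr2 no Pi, and phr2 no Pi with phr2 control.

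The largest difference of PHOSPHOFRUCTOKINASE 1 was that between the genotypes on control medium, where phr2 held 23.4% of the WT mean. The difference was −2.05 on the log2(FPKM + 1) scale (limma, SE 0.34, adjusted p = 0.0428). The WT response was −0.91 and did not pass (limma, SE 0.34, adjusted p = 0.132), and the phr2 response was 0.59 (limma, SE 0.34, adjusted p = 0.998). The 2 responses thus had opposite signs, and the test of their difference gave 1.51, which did not pass (limma, SE 0.48, adjusted p = 0.516). Without Pi the genotypes differed by −0.54 (95% interval −1.29 to 0.20). With libraries rescaled to 1 FPKM sum, the genotype difference on control medium was −1.65 and no longer passed (limma, adjusted p = 0.101), and the WT response was −0.37. The control medium call was also lost without WT control 2 or 3, WT no Pi 2 or 3, or any 1 of the phr2 control libraries (limma, adjusted p = 0.0513 to 0.199), and was kept without any other single library.

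The phosphofructokinase gene Os05g0194900 (chromosome 5, 5814320 to 5815467, plus strand) has a coding length of 867 bases, or 289 codons against 532 for PHOSPHOFRUCTOKINASE 1. Its FPKM was 15.4, 32.2 and 18.7 for WT control, 12.2, 3.74 and 5.36 for WT no Pi, 3.72, 3.70 and 2.56 in phr2 control and, without Pi, 2.53, 1.57 and 4.58 in phr2. The values rest on 16 to 259 reads a library. In FPKM WT control was again above all other libraries, and the lowest WT no Pi library was just above the highest phr2 control library. In assigned reads, not scaled for library size, WT control 1 had 105 and lay below WT no Pi 1, with 135. The group means were 22.1 ± 8.92, 7.10 ± 4.48, 3.33 ± 0.662 and 2.89 ± 1.54 (SD, n = 3) in the order WT control, WT no Pi, then phr2 control and phr2 without Pi, and of the neighbours in that order the 2 phr2 groups alone overlapped.

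On control medium phr2 held 15.1% of the WT mean of Os05g0194900, a difference of −2.36 on the log2(FPKM + 1) scale (limma, SE 0.46, adjusted p = 0.0486). The WT response, −1.58, did not pass (limma, SE 0.46, adjusted p = 0.0806), nor did the phr2 response of −0.21 (limma, adjusted p = 0.998). Their difference was 1.37 (95% interval −0.051 to 2.79). Without Pi, phr2 was at 40.8% of the WT mean, a difference of −0.99 that did not pass (limma, SE 0.46, adjusted p = 0.579). Rescaling to 1 FPKM sum gave −1.99 on control medium and ended the call (limma, adjusted p = 0.101). A single library left out ended it in 9 of 12 cases, the exceptions being WT control 1, WT no Pi 1 and phr2 no Pi 3 (limma, adjusted p = 0.0178 to 0.228 over the 12).

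The 2 phosphofructokinase genes followed each other across the 12 libraries, with a Pearson r of 0.92 on the log2(FPKM + 1) scale, the highest of the 15 pairs among the 6 genes. The libraries share groups and scale, so this is a description without a p. How fragments that fit more than 1 gene were assigned is not given in the sources used here, so the smaller gene's reads are uncertain to that extent.

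**Figure D2:**
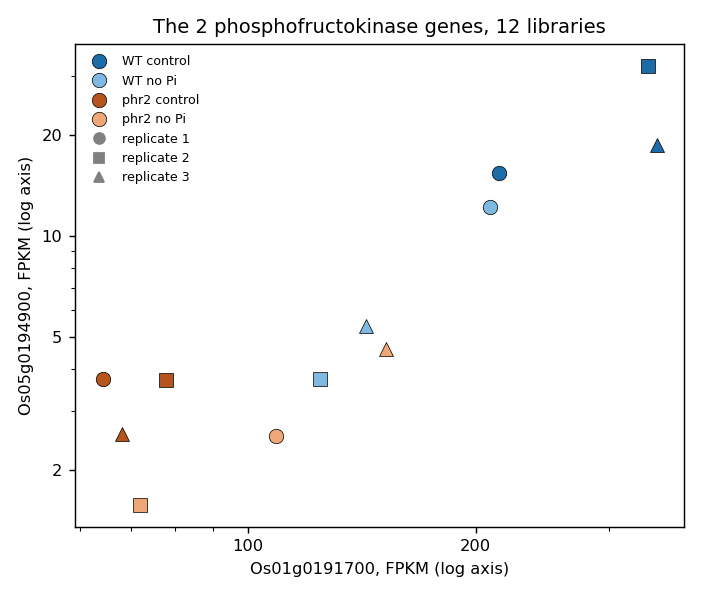
FPKM of Os05g0194900 against PHOSPHOFRUCTOKINASE 1, both axes log, 1 point per library with groups by colour and replicates by shape. WT control lies at the upper right, WT no Pi in the middle and the phr2 libraries at the lower left, with phr2 no Pi 3 beside the WT no Pi libraries.

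Within the class of ATP-dependent phosphofructokinases, 9 genes by Swiss-Prot match of which 7 were kept, PHOSPHOFRUCTOKINASE 1 made up 68.2% to 78.9% of the summed FPKM in WT control, 42.0% to 66.0% in WT no Pi, 39.0% to 52.7% in phr2 control and, without Pi, 29.1% to 61.3% in phr2. Os05g0194900 made up 4.25% to 7.53%, 1.45% to 3.85%, 1.61% to 2.50% and 0.635% to 1.84% in the same order. Both shares were thus higher in each WT control library than in any of the other 9. The class sum itself was 315 to 441 FPKM in WT control, 258 to 341 in WT no Pi, 148 to 165 in phr2 control and, without Pi, 184 to 248 in phr2. No other phosphofructokinase of the class passed in any comparison. Os06g0151900, chosen after its values were seen, was in WT at 35.0 ± 9.09 FPKM with Pi and 89.5 ± 51.4 without (SD, n = 3). Its difference was 1.19 on the log2(FPKM + 1) scale (limma, adjusted p = 0.191), and 3 of the 7 kept genes had a WT difference above 0. A share depends on the levels of the other genes in the class as well, and their part in the lower shares in WT no Pi was not tested.

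Pyruvate phosphate dikinase Os03g0432100 (chromosome 3, 18153151 to 18160127, minus strand) matches pyruvate phosphate dikinase 2 in Swiss-Prot. Its annotated coding length is 351 bases, 117 codons in a span of 6977 bases, far shorter than a whole dikinase, so its FPKM refers to a fragment of a gene model. It was the only one of the 6 with separate and higher values without Pi. Its FPKM was 0.362, 9.53 and 4.18 for WT control, 46.2, 22.6 and 24.0 for WT no Pi, 4.38, 2.54 and 0.288 in phr2 control and, without Pi, 39.1, 20.1 and 24.0 in phr2. Every library without Pi was above every control library, in both genotypes. In each of the groups without Pi replicate 1 was highest.

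The reads behind these values were few on control medium: 48 in the 3 WT control libraries and 31 in phr2 control, against 410 and 362 without Pi. The lowest value in each control group, 0.362 in WT control 1 and 0.288 in phr2 control 3, is 1 read. By group means, WT no Pi (30.9 ± 13.2, SD, n = 3) and phr2 no Pi (27.7 ± 10.01) overlapped, as did WT control (4.69 ± 4.61) and phr2 control (2.40 ± 2.05). The order thus follows the Pi supply, with the genotypes overlapping at each supply.

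The means were 6.59-fold higher without Pi in WT and 11.5-fold higher in phr2. On the log2(FPKM + 1) scale the WT response was 2.85 and narrowly missed the threshold (limma, SE 0.71, adjusted p = 0.0574). The phr2 response was as large, 3.25, and far from the threshold after adjustment (limma, SE 0.71, adjusted p = 0.973), although its unadjusted p of 0.000703 was the tenth smallest of all genes in that comparison. The difference between the responses was 0.40 (95% interval −1.81 to 2.61), an interval too wide to say that they were alike. Between the genotypes the gene differed by −0.53 on control medium and by −0.13 without Pi, and neither passed (limma, adjusted p = 0.717 and 0.977). In WT the response passed with libraries rescaled to 1 FPKM sum, 3.21 (limma, adjusted p = 0.0357), and in 3 further alternatives of 23, while without WT control 1 it was 2.04 (limma, adjusted p = 0.123).

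The gene's share of its class separated the Pi supplies as well. It held 17.6% to 62.5% of the dikinase FPKM in WT control and 15.5% to 79.8% in phr2 control, against 87.8% to 97.7% and 85.1% to 95.7% without Pi. The other gene of the class is Os05g0405000, matched to the chloroplastic pyruvate phosphate dikinase 1 and chosen for mention after its values were seen. In WT it stood at 3.70 ± 2.02 FPKM with Pi and 1.88 ± 1.40 without, and in phr2 at 1.47 ± 0.319 and 2.70 ± 1.41 (SD, n = 3), and did not pass in any comparison. The dikinase regulatory protein gene Os07g0530600, whose product switches the enzyme off and on, was at 140.5 ± 94.2 FPKM in WT with Pi and at 76.2 ± 23.5 without it, a difference of −0.72 (limma, adjusted p = 0.401).

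PHOSPHOENOLPYRUVATE CARBOXYLASE 4 (Os01g0208700, chromosome 1, 5899561 to 5909560, plus strand, coding length 3045 bases) is the plastid isoform of PEP carboxylase in rice, known for its part in ammonium assimilation. Its FPKM was 591, 454 and 227 for WT control, 74.4, 140.4 and 42.0 for WT no Pi, 113, 165 and 98.3 in phr2 control and, without Pi, 142, 99.1 and 155 in phr2. WT control stood above the other 9 libraries, which overlapped throughout. The means were 424 ± 184 in WT control, 132 ± 29.3 in phr2 no Pi, 125 ± 35.1 in phr2 control and, for WT no Pi, 85.6 ± 50.2 (SD, n = 3). An antisense row, Os01g0208800, overlaps the gene and is listed at 0, and since the use of strand is not given its reads could not be told apart from those of the gene.

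In WT the level fell by 2.36 on the log2(FPKM + 1) scale without Pi (limma, SE 0.47, adjusted p = 0.0406), to 20.2% of the control mean. In phr2 the response was 0.085 (95% interval −0.94 to 1.11), and the difference between the responses was 2.44, which did not pass (limma, SE 0.66, adjusted p = 0.471). On control medium phr2 was at 29.6% of the WT mean, −1.68 (limma, SE 0.47, adjusted p = 0.0993), with separate ranges. Without Pi the genotypes differed by 0.76 with overlapping ranges (limma, adjusted p = 0.667). The WT call held with libraries rescaled to 1 FPKM sum, −1.81 (limma, adjusted p = 0.0424). With 1 library left out it held without WT control 3, WT no Pi 2 or phr2 no Pi 3 and was lost without any other, the difference ranging from −2.79 to −1.93 (limma, adjusted p = 0.0124 to 0.180).

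Of the 8 genes matched to PEP carboxylase, 3 were kept and 4 were listed at 0 in all libraries, 2 of these with several annotated transcripts. The shares therefore describe the genes with values here and not the whole enzyme class. PHOSPHOENOLPYRUVATE CARBOXYLASE 4 held most of the summed FPKM in every library: 92.7% to 98.4% in WT control, 79.1% to 92.9% in WT no Pi, 76.7% to 87.3% in phr2 control and, without Pi, 76.8% to 93.2% in phr2. The WT control range touched those of both no Pi groups at its lower end and was separate from phr2 control. Os09g0315700, matched to PEP carboxylase 2 and chosen after its values were seen, was in WT at 15.0 ± 5.53 FPKM with Pi and 8.83 ± 0.442 without, a difference of −0.63 (limma, adjusted p = 0.402). On control medium it was 0.82 higher in phr2 (limma, adjusted p = 0.352), opposite in sign to the main gene of its class.

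PEP carboxylase kinase Os04g0517500 (chromosome 4, 25867807 to 25869187, plus strand, coding length 699 bases) was the only one of the 6 genes with higher means in phr2 than in WT at both Pi supplies. Its FPKM was 6.18, 13.6 and 3.80 for WT control, 0.784, 2.16 and 0.123 for WT no Pi, 23.0, 21.8 and 15.9 in phr2 control and, without Pi, 25.8, 7.91 and 6.34 in phr2. The 3 WT no Pi libraries were the lowest of the 12, with 7, 20 and 1 reads. Each phr2 control library was above each WT control library, and each phr2 no Pi library above each WT no Pi library. The means were 20.2 ± 3.79 in phr2 control, 13.3 ± 10.8 in phr2 no Pi, 7.86 ± 5.10 in WT control and, without Pi, 1.02 ± 1.04 in WT (SD, n = 3), with overlap between all neighbours in this order but the last pair.

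Without Pi the mean of the kinase gene was 13.05-fold higher in phr2 than in WT, resting on 345 against 28 reads. The difference was 2.70 on the log2(FPKM + 1) scale, the fifteenth smallest p in that comparison, but it did not pass (limma, SE 0.58, adjusted p = 0.541). It passed without phr2 no Pi 3, the library that lay closer to WT, at 3.06 (limma, adjusted p = 0.0455), and with no other single library left out (limma, adjusted p up to 0.9997). It also passed without phr2 no Pi 3 and WT no Pi 2 together, a pair chosen after seeing the data, at 3.45 (limma, adjusted p = 0.0335). On control medium the genotype difference was 1.40 (limma, SE 0.58, adjusted p = 0.228). The WT response was −2.10 (limma, SE 0.58, adjusted p = 0.0715), the phr2 response −0.80 (limma, SE 0.58, adjusted p = 0.998) and their difference 1.304 (95% interval −0.48 to 3.09). With a pseudocount of 0.1 the WT response read −3.19, since the gene's values without Pi lie near or under the pseudocount of 1.

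Os04g0517500 was a minor member of its class of 3 genes. It made up 1.01% to 4.93% of the kinase FPKM in WT control, lying between 0.0571% and 4.73% in WT no Pi, against 9.46% to 18.4% in phr2 control and, without Pi, 8.38% to 10.97% in phr2. The shares of the genotypes did not overlap. Most of the class was Os02g0625300, matched like the member to PEP carboxylase kinase 1, at 305 ± 263 FPKM with Pi and 133 ± 83.7 without in WT, and at 121 ± 73.5 and 118 ± 113 in phr2 (SD, n = 3). Its spread was wide, though each SD was below its mean, and it passed in no comparison (WT response −1.10, limma, adjusted p = 0.465).

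Malate dehydrogenase Os05g0574400 (chromosome 5, 28617700 to 28621468, minus strand, coding length 1023 bases) matches the mitochondrial enzyme, which interconverts malate and oxaloacetate in the citric acid cycle. It was the most abundant of the 6 genes in FPKM, which is per length. Its FPKM was 1273, 966 and 823 for WT control, 312, 306 and 313 for WT no Pi, 578, 999 and 803 in phr2 control and, without Pi, 832, 713 and 388 in phr2. The 3 WT no Pi libraries were nearly equal and below all other 9, the nearest being phr2 no Pi 3. The means were 1021 ± 230.3 in WT control, 793 ± 211 in phr2 control and 644 ± 229.9 in phr2 without Pi (SD, n = 3), against 310.1 in WT no Pi with a range of 306 to 313, and the first 3 groups overlapped in turn.

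In WT the malate dehydrogenase level fell by 1.69 on the log2(FPKM + 1) scale without Pi (limma, SE 0.35, adjusted p = 0.0428), to 30.4% of the control mean. In phr2 the response was −0.34 (95% interval −1.10 to 0.42), and the difference between the responses, 1.36, did not pass (limma, SE 0.49, adjusted p = 0.529). Without Pi the mean was 2.08-fold higher in phr2 than in WT, 0.98 on the log2 scale (limma, SE 0.35, adjusted p = 0.541). On control medium the genotypes differed by −0.38 on the deposited scale and by 0.033 after rescaling (limma, adjusted p = 0.585 and 0.958). The WT response after rescaling was −1.15 and just missed the threshold (limma, adjusted p = 0.0536). With 1 library left out the call held without WT control 3 or phr2 no Pi 3 and was lost without any other, at −1.84 to −1.52 (limma, adjusted p = 0.0177 to 0.175).

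Of the 12 genes matched to malate dehydrogenase, 5 were kept and 6 were listed at 0 in all libraries, all 6 with several annotated transcripts. Shares here are thus of the genes with values. In share of its class the member was also lower in WT without Pi: 42.0% to 45.1% of the malate dehydrogenase FPKM in WT control, 19.8% to 25.5% in WT no Pi, 30.7% to 50.2% in phr2 control and, without Pi, 27.8% to 42.5% in phr2. WT no Pi lay below the other 9 libraries. The cytosolic malate dehydrogenase Os10g0478200, chosen after its values were seen, was in WT at 818 ± 42.8 FPKM with Pi and 734 ± 71.4 without (SD, n = 3), a difference of −0.16 (limma, adjusted p = 0.736). The chloroplastic gene Os08g0434300, likewise chosen, was at 449.8 ± 239 and 207 ± 86.6 FPKM, a difference of −1.08 (limma, adjusted p = 0.245). The other 2 kept genes of the class had higher means without Pi and did not pass either. Os12g0632700, matched to a glyoxysomal enzyme, was at 37.2 ± 6.72 and 87.8 ± 52.6 FPKM, a difference of 1.07 (limma, adjusted p = 0.146). Os12g0267064, matched to an NADP-dependent chloroplastic enzyme, was at 0.170 ± 0.294 and 7.47 ± 9.31 FPKM, a difference of 2.28 (limma, adjusted p = 0.113). The low values of PHOSPHOENOLPYRUVATE CARBOXYLASE 4 and malate dehydrogenase in WT no Pi coincided with the low summed level of the 38 leaf markers in that group. PHOSPHOENOLPYRUVATE CARBOXYLASE 4 was also low in phr2 control, at 98.3 to 165 FPKM, where the leaf markers summed to 132352 to 198566. The part of those markers in the result was not tested, and in leaf RNA fewer cells of a type and less RNA per cell cannot be told apart.

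**Figure D3:**
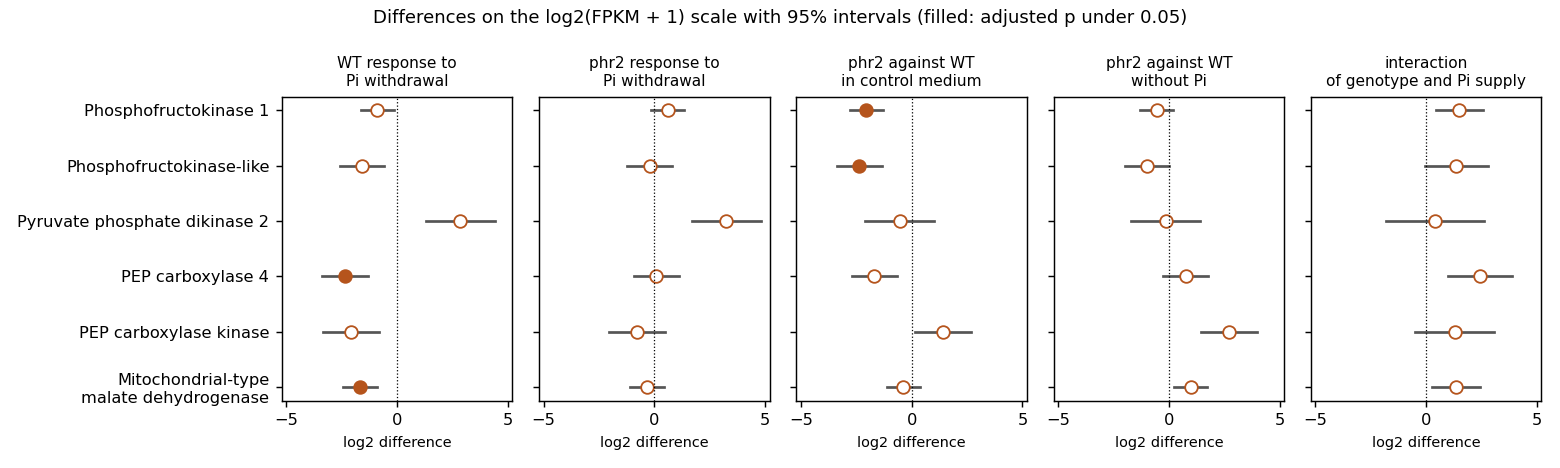
Difference of each gene on the log2(FPKM + 1) scale in the 5 comparisons, as a point with its 95% interval, filled where the limma adjusted p is under 0.05. Filled points are PHOSPHOENOLPYRUVATE CARBOXYLASE 4 and malate dehydrogenase in the WT response and both phosphofructokinases on control medium, all 4 below 0.

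**Figure D4:**
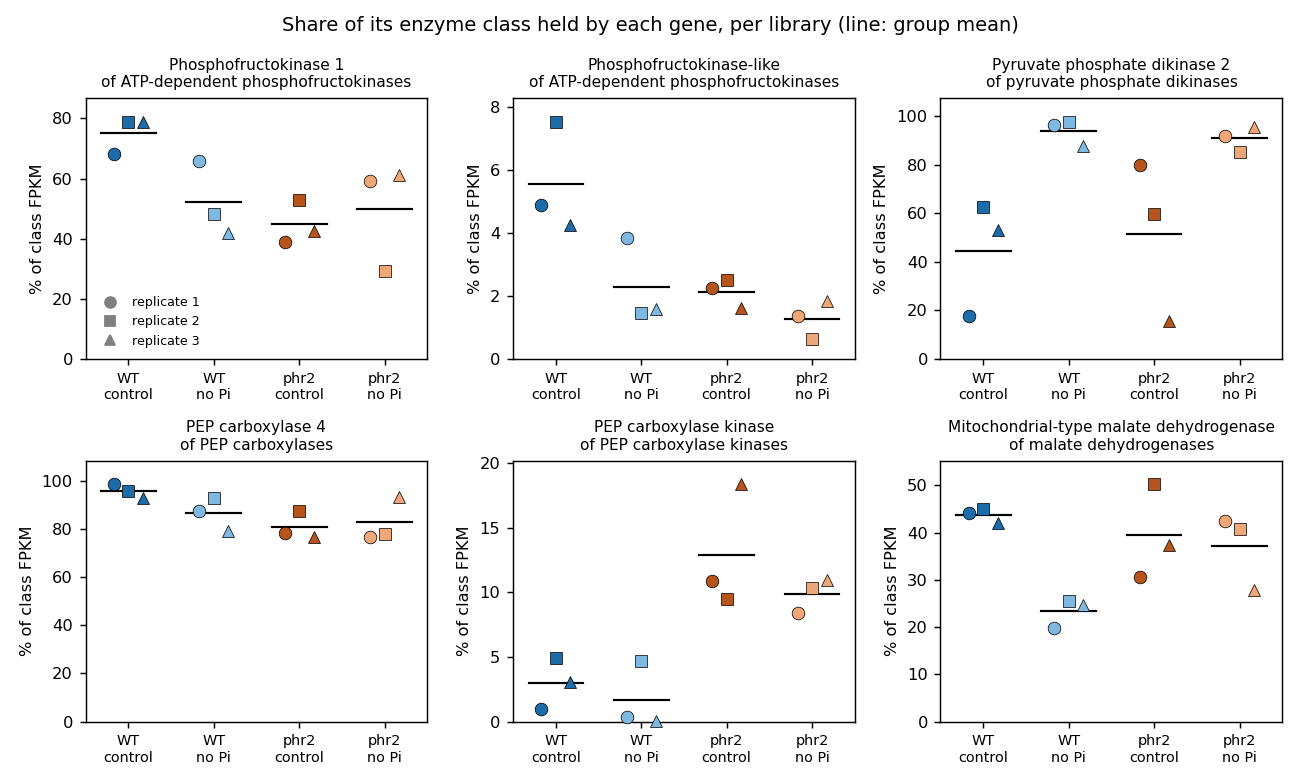
Percent of the summed FPKM of its enzyme class held by each gene in every library, with a line at the group mean (linear axes from 0). The dikinase share is 85.1% or more in all 6 libraries without Pi, the kinase share is 8.38% or more in all 6 phr2 libraries and 4.93% or less in WT, and the malate dehydrogenase share is lowest in WT no Pi.

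The 6 genes did not form 1 block across the libraries. Over the 15 pairs the Pearson r on the log2(FPKM + 1) scale had a median of 0.11. Pyruvate phosphate dikinase ran opposite to malate dehydrogenase (r = −0.68), the lowest pair. PHOSPHOENOLPYRUVATE CARBOXYLASE 4 and PEP carboxylase kinase each had r = 0.70 with malate dehydrogenase but 0.39 with each other. The phosphofructokinases were close to PHOSPHOENOLPYRUVATE CARBOXYLASE 4 (r = 0.50 and 0.60) and below 0 with the kinase (r = −0.43 and −0.26). Comparisons that share a group of libraries are not independent, which is why the values of a gene in several comparisons are given side by side and not counted together.

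Among all genes tested that carry a name or description, the 3 nearest to each member over the 12 libraries by Pearson r were as follows. For PHOSPHOFRUCTOKINASE 1 they were GATA TRANSCRIPTION FACTOR 2 (Os02g0645600, r = 0.975), CALMODULIN-LIKE PROTEIN 12 (Os01g0604500, 0.970) and CYTOCHROME P450 92A9 (Os09g0441400, 0.968). For Os05g0194900 they were a transposon-like gene (Os02g0689500, 0.972), a receptor-like protein kinase gene (Os05g0423500, 0.971) and Os01g0747300 (0.967). None of the phosphofructokinases' nearest genes was shared between the pair.

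The genes nearest to pyruvate phosphate dikinase were Os05g0440300 (r = 0.958), SULFURTRANSFERASE 7 (Os12g0428000, 0.914), similar to a senescence-associated protein, and BENZOTHIADIAZOLE-INDUCED SAMT1 (Os11g0256900, 0.903), a salicylic acid methyltransferase. For PHOSPHOENOLPYRUVATE CARBOXYLASE 4 they were Os02g0663900 (0.954), PROLIFERATING CELL FACTOR 1 (Os04g0194600, 0.949) and a methyltransferase family gene (Os10g0522000, 0.949). For PEP carboxylase kinase they were a ribosomal protein L18 gene (Os03g0694800, 0.950), a pentatricopeptide repeat gene (Os05g0365500, 0.943) and a hydrolase gene (Os08g0161500, 0.937). For malate dehydrogenase they were an oxygen-evolving complex gene of photosystem II (Os01g0501800, 0.956), a peptide transporter family gene (Os05g0410900, 0.952) and the Pi exporter gene PHO1;1 (Os01g0110100, 0.951). These likenesses rest on 12 libraries in 4 groups and were picked as the highest among all genes.

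The wider pathway was read from 23 enzyme classes assembled by Swiss-Prot name, 128 genes of which 78 were kept and 31 were listed at 0 in all libraries. Of these 31, 21 have several annotated transcripts, and why they are at 0 was not tested. Besides the 6 members, 72 genes were kept. In the WT response 0 of the 72 rose, 3 fell and 69 did not pass, where 2.36% of all genes passed and 1.4% passed as lower, with a median of 0.21 on the log2(FPKM + 1) scale beside −0.013 for all genes. In the phr2 response, the 2 genotype comparisons and the interaction none of the 72 passed, with medians of 0.050, 0.27, 0.066 and −0.16 and with 3, 13, 8 and 9 genes at an unadjusted limma p under 0.05, where 3.91%, 18.5%, 8.67% and 8.84% of all genes were. In the WT response 18 of the 72 were, beside 25% of all genes. These counts lay near the shares over all genes and are no result about the 72.

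The 3 genes that fell are 2 of 5 kept phosphorylating glyceraldehyde-3-phosphate dehydrogenases and 1 of 4 kept phosphoglycerate kinases, all 3 matched to chloroplastic enzymes. Glyceraldehyde-3-phosphate dehydrogenase A (Os04g0459500) was in WT at 4686 ± 1657 FPKM with Pi and 662 ± 105 without (SD, n = 3), and fell by 2.76 (limma, SE 0.37, adjusted p = 0.0220). Glyceraldehyde-3-phosphate dehydrogenase B (Os03g0129300) fell by 1.79 (limma, SE 0.40, adjusted p = 0.0442) and PHOSPHOGLYCERATE KINASE 3 (Os05g0496200), matched to the chloroplastic enzyme, by 2.04 (limma, SE 0.29, adjusted p = 0.0222). In phr2 the same genes differed by −0.36, −0.33 and 0.072 (limma, adjusted p = 0.998 for each). The tests of the difference between genotypes did not pass, at 2.40, 1.46 and 2.11 (limma, adjusted p = 0.422, 0.537 and 0.422). Another dehydrogenase gene matched to a chloroplastic enzyme, Os02g0171100, chosen after its values were seen, differed by 0.11 in WT (limma, adjusted p = 0.922). Of the genes matched to cytosolic dehydrogenases, likewise chosen, Os02g0601300 differed by −0.038 and Os04g0486600 by −0.91 in WT (limma, adjusted p = 0.970 and 0.198). The 3 genes that fell were low in the group with the lowest summed level of leaf markers, and the part of those markers in the result was not tested.

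The genes matched by Swiss-Prot name to subunits of the PPi-dependent phosphofructokinase, 5 genes of which 3 were kept, did not pass in any comparison. Alpha subunit gene Os06g0326400 had the highest mean of the class, at 32.4 ± 21.9 FPKM with Pi and 37.8 ± 10.8 without in WT, and at 36.4 ± 3.97 and 83.5 ± 31.6 in phr2 (SD, n = 3). The second alpha subunit gene, Os02g0714200, chosen after its values were seen, was at 24.5 ± 9.63, 9.37 ± 2.19, 8.60 ± 2.48 and 13.1 ± 3.30 in the same order. Its differences were −1.25 in the WT response and −1.37 on control medium (limma, adjusted p = 0.0861 and 0.0949), the same signs as for both phosphofructokinase members. The beta subunit gene Os06g0247500, likewise chosen, differed by −0.42 and 0.21 in those comparisons (limma, adjusted p = 0.456 and 0.767).

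Around the remaining members, no gene of the regulatory or competing classes passed. The bifunctional enzyme gene Os03g0294200, which makes and breaks down the PPi-phosphofructokinase activator fructose 2,6-bisphosphate, was at 4.03 ± 0.959 FPKM in WT control and 1.34 ± 0.453 in phr2 control, −1.11 (limma, adjusted p = 0.125). PYRUVATE KINASE 1 (Os11g0148500), a cytosolic form of the enzyme that dikinase and PEP carboxylase bypass, was at 137 ± 13.1 and 128 ± 12.7 FPKM in WT with and without Pi, −0.10 (limma, adjusted p = 0.872). PEP carboxykinase Os03g0255500, which runs from oxaloacetate back to PEP, was at 132 ± 141 and 147 ± 110.3 FPKM, 0.32 (limma, adjusted p = 0.808). The other kept carboxykinase gene, Os10g0204400, chosen after its values were seen, was in WT at 7.64 ± 2.36 FPKM with Pi and 21.2 ± 7.73 without. Its difference was 1.32 and did not pass (limma, adjusted p = 0.0791).

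**Figure D5:**
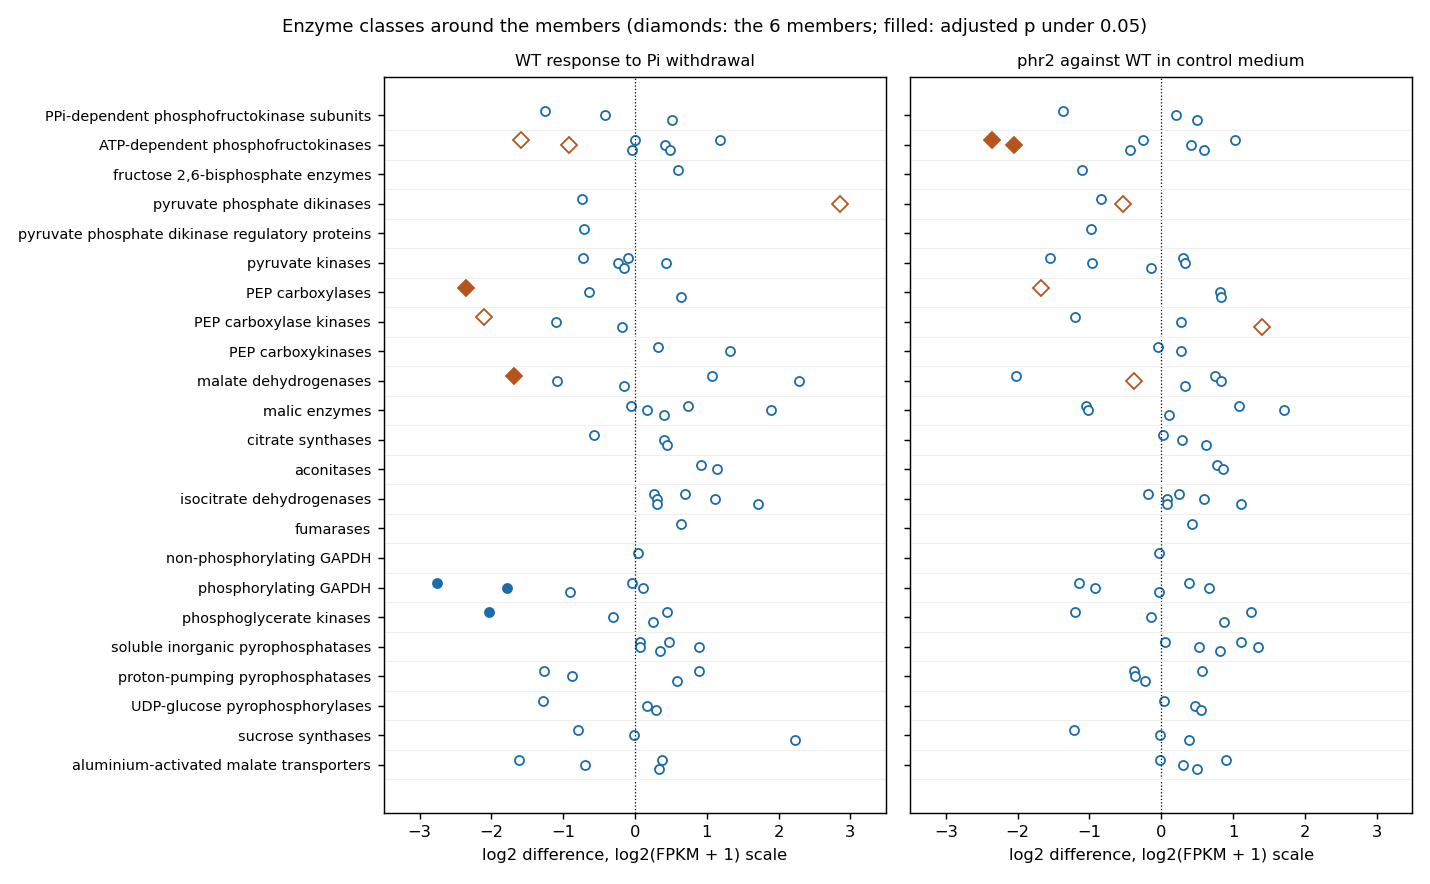
Difference on the log2(FPKM + 1) scale of every kept gene of the 23 enzyme classes in the WT response (left) and between phr2 and WT on control medium (right), diamonds for the 6 members and filled where the limma adjusted p is under 0.05. Apart from the members, the filled points are 2 phosphorylating glyceraldehyde-3-phosphate dehydrogenases and 1 phosphoglycerate kinase. All 3 match chloroplastic enzymes and lie below 0 in the WT response.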

How the data were processed

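The authors deposited 1 table of FPKM per transcript for 46947 transcripts and 12 libraries. Bowtie 0.12.2, HISAT2 2.0 and StringTie 1.3.0 are listed per the submitters' processing notes. These notes also list mm8, a mouse build, although the identifiers are those of rice. The rice assembly, strand use and filters were not given in the sources used here, and coordinates are as in the table. FPKM were summed per gene, and genes with 3 or more libraries at an FPKM of 1 or more were tested on log2(FPKM + 1) with limma 3.58.1 (intensity trend, 4 group means, 8 residual and 3.78 prior degrees of freedom; R 4.3.3), with Benjamini-Hochberg adjustment over all 22648 genes and a threshold of 0.05. The pseudocount understates changes of low genes. FPKM times length came out as whole reads, within 0.01, for at least 99.98% of values in each library; these reads cover counting only and gave the depths and the voom alternative. The script was tested on simulated data.

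The members, enzyme classes and markers were chosen with earlier results of these data known. Classes were matched on Swiss-Prot names, leaving out hypothetical and non-coding rows, because the other fields conflict; this narrowed the planned wording. Named were the 6 members, class genes that passed (at most 3 a class and comparison), otherwise the class gene with the highest mean FPKM, and the 3 nearest genes of each member. Exceptions are marked in the text. Class names carry no check of enzyme activity.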

Additional observations from a re-analysis of the deposited data

How the results depend on the processing

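Over 23 alternatives (22 for the interaction, for which a fit of only the groups compared cannot be made) the number of members passing in the WT response, 2, was 0 with no filter on low values, with quantile normalization, with only the groups compared, and without WT control 1 and phr2 no Pi 3 together, and 1 with the replicate block. It was at most 3 in the alternatives that kept all or dropped 2 libraries, where 0 to 1094 of all genes passed. With 1 library left out it was 0 to 4, where 0 to 3155 of all genes passed. Rescaling changed which members passed: the dikinase did (limma, adjusted p = 0.0357) and malate dehydrogenase did not (limma, adjusted p = 0.0536). Between the genotypes on control medium, 2 became 1 with a pseudocount of 0.1. It became 0 with no filter, rescaling, quantile normalization, voom on recovered reads and the replicate block. Over the alternatives that kept all or dropped 2 libraries, 0 to 1178 of all genes passed. With 1 library left out the member count was 0 to 2, where 0 to 770 of all genes passed. Without Pi, 0 became 1 without phr2 no Pi 3 together with either WT control 1 or WT no Pi 2. The latter pair was chosen after seeing the data. Over the alternatives that kept all or dropped 2 libraries, 0 to 641 of all genes passed there. With 1 library left out the member count was 0 to 1, where 0 to 269 of all genes passed. The member count stayed 0 in the phr2 response and the interaction, where at most 33 and 26 of all genes passed. The cause of these changes was not tested.

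PHOSPHOENOLPYRUVATE CARBOXYLASE 4 kept its WT call in 10 of 23 alternatives and malate dehydrogenase in 6; on control medium PHOSPHOFRUCTOKINASE 1 kept its call in 11 and Os05g0194900 in 8. None of these 4 changed sign. Signs turned for small differences. With 1 library left out the phr2 response ran from −0.072 to 0.30 for PHOSPHOENOLPYRUVATE CARBOXYLASE 4 (−0.043 without phr2 no Pi 3, alone or in either pair) and from −0.51 to 0.048 for Os05g0194900, and the dikinase ran from −1.35 to 0.13 on control medium, −0.40 to 0.19 between genotypes without Pi (0.062 with quantile normalization) and −0.26 to 1.21 in the interaction. Malate dehydrogenase on control medium was 0.033 rescaled, 0.24 with quantile normalization and 0.058 with voom.

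Rescaling moved the median of all genes to 0.41 in the WT response and 0.33 on control medium, and the WT calls over all genes from 217 higher and 317 lower to 938 and 156 (quantile 113 and 128, voom 834 and 125). Relative to that median PHOSPHOENOLPYRUVATE CARBOXYLASE 4 was −2.22, malate dehydrogenase −1.55 and the dikinase 2.80 in WT, and the phosphofructokinases −1.98 and −2.32 on control medium. Genes passing over all numbered 534 in the WT response, against 86 to 1094 in the alternatives that kept all or dropped 2 libraries, 0 with only the groups compared and 0 to 3155 with 1 left out; on control medium 151, against 0 to 1178 and 0 to 770. Replicate numbers did not pair the libraries (18 same-number pairs, r −0.43 to 0.30), and under the replicate block malate dehydrogenase missed in WT (limma, adjusted p = 0.0561) and 174 and 0 genes passed in those 2 comparisons. Depth limits the dikinase on control medium and the kinase in WT no Pi, where values rest on few reads.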

Other observations

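The classes further along the path were read from the same 72 genes, and none of the genes below passed in any comparison. The isocitrate dehydrogenase gene with the highest mean of the 6 kept, cytosolic Os01g0654500, was in WT at 68.6 ± 22.2 FPKM with Pi and 121 ± 73.1 without (SD, n = 3; limma, adjusted p = 0.444). Aconitase Os08g0191100 was at 61.4 ± 15.6 and 135 ± 93.7 FPKM, and fumarase Os03g0337900 at 30.5 ± 9.54 and 47.1 ± 5.53. NADP-malic enzyme Os01g0723400, which turns malate into pyruvate, was at 15.8 ± 15.8 and 50.8 ± 24.4 FPKM, a difference of 1.90 on the log2(FPKM + 1) scale (limma, adjusted p = 0.133).

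The classes below include enzymes that make or use PPi and others that do neither. Os12g0191150, the soluble pyrophosphatase gene with the highest mean of the 5 kept, was at 195 ± 57.2 FPKM in WT control. In phr2 control it was at 342 ± 89.3 (SD, n = 3, limma, adjusted p = 0.227). Sucrose synthase Os03g0340500, which cleaves sucrose without ATP, was in WT at 25.9 ± 17.1 FPKM with Pi and 107 ± 27.7 without, a difference of 2.23 (limma, adjusted p = 0.0746). The proton-pumping pyrophosphatase gene Os02g0184200 was at 495 ± 99.1 and 276 ± 92.9 FPKM (limma, adjusted p = 0.110). UDP-glucose pyrophosphorylase Os09g0553200 was at 370.0 ± 135 and 152 ± 64.1 FPKM, −1.28 (limma, adjusted p = 0.0936). Non-phosphorylating glyceraldehyde-3-phosphate dehydrogenase Os08g0440800, which skips the Pi-consuming step, was at 193 ± 57.4 and 198 ± 53.4 FPKM, a difference of 0.047 (limma, adjusted p = 0.948), citrate synthase Os02g0232400 at 53.9 ± 13.6 and 75.3 ± 34.4, and the aluminium-activated malate transporter gene Os06g0268800 at 18.7 ± 6.36 and 23.6 ± 7.09.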
